A study of Arabidopsis thaliana with 9 samples.

Results

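Transposable elements (TEs) are stretches of DNA that can move or copy themselves within a genome, and the annotation behind the count tables gave each annotated element a row of its own, next to the genes. Each library listed 31189 such rows among 69383 rows in all. The rows described here were the 539 elements whose counts summed to at least 45 over the 9 libraries, which was 1.73% of the element rows. Of the others, 27485 were at 0 in every library and 3165 held counts below that minimum. Because the summed count chose the rows, their levels are a description. The elements just inside the limit were AT3TE91085 and AT2TE00995, both at exactly 45 counts, and those just outside it were AT5TE59730 with 44.82 and AT4TE21090 with 44.5 counts.

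Plant transposable elements are usually kept silent by cytosine methylation. CG methylation is copied by the methyltransferase MET1 with the help of methylcytosine-binding VIM proteins, non-CG methylation is kept by chromomethylases together with histone H3 lysine 9 methylation, and small RNAs guide the methyltransferase DRM2 to new sites. LTR retrotransposons copy themselves through an RNA and carry a direct repeat at each end, whereas non-LTR retroelements lack these repeats. Many elements also lie beside or within genes and are read as part of a gene's transcript, so that a count on an element row need not come from a transcript of the element itself.

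RNA was measured in whole seedlings of Arabidopsis thaliana at the age of 4 days, kept at 23 °C on half-strength MS medium under long days. OE APOLO-labelled libraries came from 1 transgenic line (OE APOLO-1) that expresses the Arabidopsis long noncoding RNA APOLO from the constitutive viral 35S promoter. OE UPAT libraries came from 1 line (OE UPAT-1) that expresses the human long noncoding RNA UPAT from the same promoter, and WT libraries from Col-0, the background of both lines. There were 3 libraries of each, named A, B and C, from independent biological replicates per the study's methods. The comparisons address whether elements are expressed differently in plants with either RNA, since the study links APOLO and UPAT to VIM1 and DNA methylation.

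Total counts were from 11918225 to 14112670 in the OE APOLO-labelled libraries, from 7901946 to 9206471 in OE UPAT and from 13023768 to 14084551 in WT, so the OE UPAT libraries were the shallowest. The APOLO row (AT2G34655) held 1, 3 and 3 counts in the OE APOLO-labelled libraries and 2, 2 and 2 in WT. These values lie at or under a floor of 3 counts, so the row gave no check of that label, which is why the libraries are called by their label throughout. UPAT, a human RNA, has no row. Leaf and root markers were present in every library (the Rubisco subunit RBCS1A from 7296 CPM upwards, and the root genes PIN2, COBL9 and EXPA7), while the flower gene AG and the pollen gene VGD1 were at 0 in all 9. The other flower gene, AP3, was not at 0 throughout and reached at most 0.253 CPM. The seed storage gene CRA1 reached 11.2 and 5.67 CPM in libraries A and B labelled OE APOLO and stayed at or under 1.42 CPM in the other 7. The other seed genes did not follow it, since SESA3 was highest in OE UPAT library B (0.978 CPM) and OLEO1 in WT library B (0.726 CPM). The part of seed RNA in the results below was not tested. In whole seedlings, fewer cells of a type and less RNA per cell cannot be told apart.

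The sequences of the elements themselves are not part of the RefSeq annotation used here, but 35 element rows held the same count as a gene row at most 20 rows away in all 9 libraries, to within 0.01, and every one of these gene rows was a pseudogene. Of the 35, 8 equalled a member of the Sadhu family, which the RefSeq notes call a non-coding retrotransposon family. Their annotated starts are shown because one of them, SADHU3-2, was among the few expressed elements that were higher in the OE APOLO-labelled libraries. Each line gives the first 100 bases of the RefSeq span on its own strand (TAIR10.1), with the letters CAATCGTT in capitals. SADHU3-2 (AT3TE60310, minus strand of chr3:14750195-14750294), SADHU1-1 (AT2TE16945, minus strand of chr2:4006945-4007044), SADHU5-1 (AT4TE03410, plus strand of chr4:660810-660909) and SADHU1-3 (AT5TE38720, plus strand of chr5:10632241-10632340) hold these letters.
SADHU3-2: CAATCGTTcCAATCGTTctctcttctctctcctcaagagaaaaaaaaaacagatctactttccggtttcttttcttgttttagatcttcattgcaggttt
SADHU1-1: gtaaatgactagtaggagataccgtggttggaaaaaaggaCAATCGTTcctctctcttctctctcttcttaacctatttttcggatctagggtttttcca
SADHU5-1: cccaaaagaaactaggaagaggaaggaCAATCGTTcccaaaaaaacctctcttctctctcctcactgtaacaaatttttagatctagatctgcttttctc
SADHU1-3: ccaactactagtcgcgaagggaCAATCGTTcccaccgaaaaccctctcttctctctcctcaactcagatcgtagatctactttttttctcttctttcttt
The others, of which SADHU4-1 (AT5TE39795, minus strand of chr5:10934631-10934730) and SADHU7-1 (AT3TE18450, minus strand of chr3:4378072-4378171) are given here, lack them in this window.
SADHU4-1: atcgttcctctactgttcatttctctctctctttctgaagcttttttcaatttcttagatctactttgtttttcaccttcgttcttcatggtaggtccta
SADHU7-1: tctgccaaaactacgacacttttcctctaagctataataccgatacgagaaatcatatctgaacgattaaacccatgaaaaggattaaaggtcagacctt

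The motif CAATCGTT was picked after these starts had been seen. On either strand, it was present in the first 100 bases of 8 of the 16 Sadhu loci in the annotation and of 99 of 36982 gene rows with such a window, or 0.268%. SADHU3-2 aligned with SADHU3-1, its nearest relative in the family, over 914 bases with 80.1% identity, while SADHU1-1 and SADHU1-3 aligned over 434 bases with 72.1% identity.

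Direct repeats were looked for around the 27 pseudogenes that stand next to a called element in file order, within 1500 bases of each. Copies of at least 100 bases and 95% identity were present at 6 of them. They are shown for AT5G35935 (chr5:14083388-14089891, minus strand), a pseudogene that follows AT5TE50260 and is described below, with the single base that differs between the copies in capitals. The first line is the copy at chr5:14088427-14088529, inside the annotated pseudogene, and the second the copy at chr5:14083274-14083376, just outside its end, both read on the minus strand of TAIR10.1.
AT5G35935 inner copy: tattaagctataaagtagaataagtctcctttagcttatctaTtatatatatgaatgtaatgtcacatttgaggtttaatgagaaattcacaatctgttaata
AT5G35935 outer copy: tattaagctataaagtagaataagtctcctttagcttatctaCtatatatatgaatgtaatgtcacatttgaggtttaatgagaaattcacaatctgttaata
The other 5 were AT4G16870 with 2 identical copies of 130 bases, AT4G04410 with 2 identical copies of 391 bases, AT1G58561 with copies of 430 aligned bases and 98.4% identity, AT2G23330 with 138 and 98.6%, and AT4G16910 with 1235 and 97.0%. A repeat pair of this kind is a description of the sequence and does not show that the element is intact.

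Expressed elements were mostly low. Levels are CPM values, counts scaled to a common library size with TMM factors, not corrected for length. The median of the elements' mean CPM over the 9 libraries was 1.36, against 13.6 for the 20678 gene rows that reached the same summed count. The lowest was 0.399 CPM and the highest 208 CPM, 205 elements were under 1 CPM, 46 were at 10 CPM or above, and 2 were above 100 CPM. The 10 highest elements held 32.8% of all counts on the 539 rows and the highest alone held 8.90%.

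**Figure D1:**
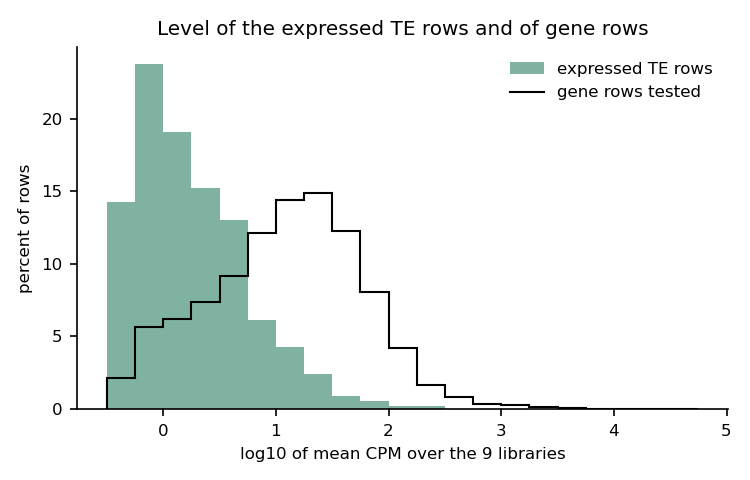
Share of rows (vertical axis, percent) by the log10 of the mean CPM over the 9 libraries (horizontal axis) for the 539 expressed TE rows (green bars) and the 20678 gene rows of the same summed count (black line). The medians, 1.36 CPM for the elements and 13.6 CPM for the gene rows, lie 1 decade apart on the axis.

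The highest element, AT5TE72200 (start between positions 20048239 and 20051829 of chromosome 5), held 209, 205 and 191 CPM in the OE APOLO-labelled libraries, 185, 200 and 194 CPM in OE UPAT and 239, 234 and 219 CPM in WT. All 6 overexpression libraries were below the 3 WT libraries, but neither difference passed the test, with log2 fold changes of -0.19 ± 0.07 (SE) for OE APOLO and -0.26 ± 0.07 for OE UPAT and edgeR adjusted p of 0.0802 and 0.0112. Its counts were whole numbers in every library, and its neighbours in file order were AT5G49440 and the transcription factor gene bZIP1. AT2TE54200 was next to CXIP4, which encodes a nuclear protein named for binding a calcium exchanger, and averaged 86.0 CPM in the OE APOLO-labelled libraries, 67.3 in OE UPAT and 89.4 in WT. AT2TE26110 and AT2TE86520 were next to AGP9 and AGP16, both genes of arabinogalactan proteins of the cell wall and surface. AT3TE95080 started between positions 23328322 and 23328916 of chromosome 3, where the gene CSP41A, which encodes a ribonuclease of chloroplast ribosomal RNA maturation, ends.

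The summed level of the 539 elements was 2439 ± 42.7 CPM in the OE APOLO-labelled libraries, 2192 ± 38.9 CPM in OE UPAT and 2422 ± 19.9 CPM in WT (SD, n = 3 each). The OE UPAT libraries, from 2154 to 2231 CPM, lay below the WT libraries, from 2402 to 2442 CPM, while the OE APOLO-labelled libraries, from 2390 to 2469 CPM, overlapped WT. As a share of the library the elements took from 0.229% to 0.253% of counts in the OE APOLO-labelled libraries, from 0.216% to 0.224% in OE UPAT and from 0.240% to 0.254% in WT. The sums depended on a few elements. Without the 5 highest elements, the sums were 1895 ± 47.0 CPM in the OE APOLO-labelled libraries, 1696 ± 36.8 CPM in OE UPAT and 1768 ± 20.4 CPM in WT, so the OE APOLO-labelled libraries were then above WT. Over the 22 elements with whole counts alone, the sums were 222 ± 2.26 CPM in the OE APOLO-labelled libraries, 211 ± 8.80 CPM in OE UPAT and 250 ± 12.7 CPM in WT. No p is given for a sum over rows that were chosen by their level.

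**Figure D2:**
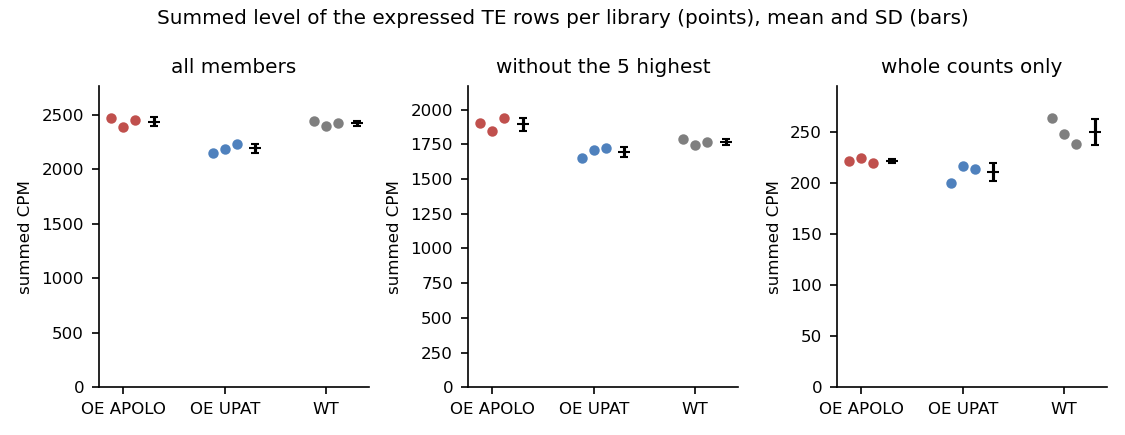
Summed CPM (vertical axes, from 0) of all 539 expressed TE rows, of the rows without the 5 highest, and of the 22 rows with whole counts, in each library (points) with the group mean and SD (bars, n = 3). The OE UPAT libraries, from 2154 to 2231 CPM, lie below WT in the first panel, and the OE APOLO-labelled libraries lie above WT only in the middle panel.

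Most of the rows held fractions of reads. A value of 0.5 can arise when 1 read is divided between 2 rows or 2 sites, and finer fractions when it is divided over more. Of the 539 elements, 517 (95.9%) had at least 1 fractional value, against 5945 (28.8%) of the 20678 gene rows. In 327 elements all fractions were multiples of 0.5, in 190 they were finer, and 22 had whole counts in all libraries. Within a library, between 54.9% and 59.7% of the 539 values were fractional. How shared reads were divided and whether strand was used in counting are not given in the sources used here. The 22 elements of whole counts, among them the highest of all (AT5TE72200), had a median summed count of 73.0, against 139.5 for elements with multiples of 0.5 and 197 for those with finer fractions.

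In the files, element rows stand among gene rows in the order of their start positions, so the row before and the row after bracket an element's start. The bracket was 3755 bases wide at the median, and 61 elements started within the span of an annotated gene for certain. The nearest gene row was the adjacent row for 491 elements and at most 4 rows away for the others. In 267 cases both sides were equally near and the preceding gene was taken. The nearest row was a protein-coding gene for 406 elements, a pseudogene or transcribed pseudogene for 93, a long noncoding RNA for 21 and another kind of RNA gene for the rest. Elements were below their neighbours, with a median of 9.94% of the nearest gene row's summed count, but 100 were above them.

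The 539 elements were spread over all 5 chromosomes: 145 of 7135 element rows on chromosome 1 (2.03%), 83 of 5949 on chromosome 2 (1.40%), 107 of 6461 on chromosome 3 (1.66%), 82 of 4967 on chromosome 4 (1.65%) and 122 of 6677 on chromosome 5 (1.83%). The median summed count ran from 120 on chromosome 2 to 160.5 on chromosome 4.

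For the comparisons, all 21217 rows with a summed count of at least 45, genes and elements together, entered 1 fit with edgeR's quasi-likelihood test, and rows with a Benjamini-Hochberg adjusted p under 0.01 were called, the threshold of the study. Against WT, 14 elements rose and 13 fell in the OE APOLO-labelled libraries, which was 27 of 539 or 5.01%. Over all rows, 6.21% were called in this comparison, 4.06% higher and 2.15% lower, so the elements' share was near the background. An unadjusted p under 0.05 was reached by 118 of the 539 elements, against 5371 of the 20678 gene rows. The median log2 fold change of the 539 was 0.09, against 0.00 over all rows. The count depended on single libraries, and was 13 without WT library A, 15 without WT library C and 17 without library B labelled OE APOLO.

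In OE UPAT, 16 elements rose and 26 fell against WT, or 42 of 539 (7.79%). Over all rows 18.8% were called, 9.61% higher and 9.15% lower, so elements were called in a smaller share than rows in general. Their counts were also lower (median 145.5 against 1440.5 for the gene rows), and the part of this in the smaller share was not tested. An unadjusted p under 0.05 was reached by 122 of the 539 elements, against 8403 of the 20678 gene rows. The median log2 fold change was -0.08, against -0.01 over all rows. The count was 23 without OE UPAT library C, without WT library A or without WT library C, and 26 without OE UPAT library B.

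By chromosome, in the OE APOLO-labelled libraries 7 of the 82 elements on chromosome 4 fell and 3 rose, whereas no element on chromosome 5 fell and 2 of 122 rose. On chromosomes 1, 2 and 3, those that rose were 2, 3 and 4 and those that fell were 2 on each. In OE UPAT, 8 of the 83 elements on chromosome 2 fell and 3 rose. On the other chromosomes the elements that rose were 6 on chromosome 1, 3 on chromosome 3, 1 on chromosome 4 and 3 on chromosome 5, and those that fell were 5, 2, 5 and 6. Several of these elements lie side by side, as described below, so they are not independent counts for a chromosome. Over all rows of all chromosomes, 4.06% rose and 2.15% fell in the OE APOLO-labelled libraries, and 9.61% rose and 9.15% fell in OE UPAT. The share over all rows of each chromosome was not computed, so these counts do not set a chromosome apart.

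**Figure D3:**
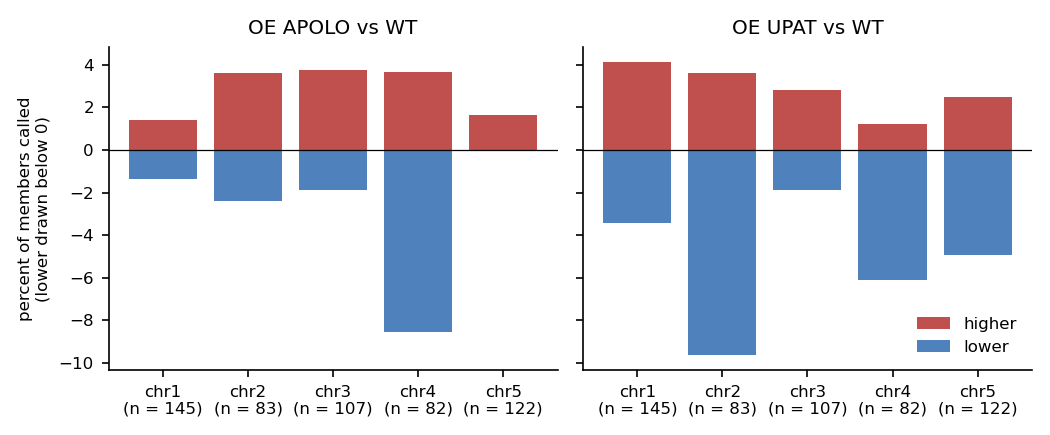
Percent of the expressed TE rows of each chromosome (horizontal axis, with the number of rows) that were called higher (red, above 0) or lower (blue, below 0) than WT in the OE APOLO-labelled libraries (left) and in OE UPAT (right). The longest bars are the rows called lower, 7 of 82 on chromosome 4 in the left panel and 8 of 83 on chromosome 2 in the right panel. Shares over all rows of each chromosome were not computed.

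Of the called elements, 5 fell in both comparisons, which share their WT libraries. The shares of all rows called in both comparisons, in the same or in opposite directions, are not given here. The counts of elements called in both are therefore descriptions without a background. AT2TE28180, between AT2G15880 and AT2G15890, held 9.41, 10.7 and 9.14 CPM in the OE APOLO-labelled libraries, 6.34, 6.08 and 5.74 CPM in OE UPAT, and 23.7, 21.1 and 18.1 CPM in WT. The 3 groups did not overlap. The log2 fold changes against WT were -1.11 ± 0.12 (SE) in the OE APOLO-labelled libraries (edgeR adjusted p = 2.85e-05) and -1.79 ± 0.13 in OE UPAT (1.85e-07). The row before it, the protein-coding gene AT2G15880, held far more counts and changed by -1.16 and -1.84 in the same comparisons.

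AT4TE42860, the second highest of all elements, held 120, 107 and 96.1 CPM in the OE APOLO-labelled libraries, 164, 124 and 152 CPM in OE UPAT, and 174, 213 and 206 CPM in WT. Each overexpression library was below every WT library. The log2 fold change was -0.88 ± 0.11 (SE) in the OE APOLO-labelled libraries (edgeR adjusted p = 9.44e-05) and -0.43 ± 0.11 in OE UPAT (0.00692), and the call in OE UPAT was kept in 16 of 21 alternatives. The element started between positions 9482429 and 9483955 of chromosome 4, just ahead of the pseudogene AT4G16870 with its identical end repeats, which held 1558, 1402 and 1080 counts in the OE APOLO-labelled libraries, 1470, 1120 and 1133 in OE UPAT and 2364, 3032 and 2593 in WT. On the element row itself the counts were 1613, 1443 and 1118 in the OE APOLO-labelled libraries, 1501, 1142 and 1166 in OE UPAT and 2427, 3107 and 2657 in WT, so both rows held nearly the same values. This is the neighbourhood of RPP4 and SNC1, disease resistance genes of the TIR-NB-LRR class.

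A second element of that neighbourhood, AT4TE42950, followed the noncoding RNA AT4G16892 and fell as well. It held 7.80, 7.62 and 6.77 CPM in the OE APOLO-labelled libraries, 8.19, 7.38 and 6.76 CPM in OE UPAT, and 13.4, 13.1 and 12.4 CPM in WT. The overexpression groups lay together and clear of WT, with log2 fold changes of -0.81 ± 0.12 (edgeR adjusted p = 3.11e-04) and -0.80 ± 0.12 (1.70e-04). Both rows beside it fell too, AT4G16892 by 1.81 and 1.33 and the pseudogene AT4G16910 by 1.49 and 1.01 on the log2 scale, in the OE APOLO-labelled libraries and in OE UPAT. The falls in OE UPAT had an edgeR adjusted p of 0.00323 for AT4G16892 (kept in 17 of 21 alternatives) and 0.00909 for AT4G16910 (kept in 9 of 21).

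AT1TE54330 equalled the pseudogene AT1G43675, which the RefSeq notes compare with a non-LTR retroelement protein and which spans positions 16470872 to 16471248 of chromosome 1. It held 1.64, 1.37 and 1.85 CPM in the OE APOLO-labelled libraries, 1.69, 1.95 and 2.61 CPM in OE UPAT, and 5.02, 3.94 and 4.92 CPM in WT. WT did not overlap with either group. The log2 fold changes were -1.52 ± 0.21 (edgeR adjusted p = 2.48e-04) and -1.15 ± 0.22 (0.00102), and both calls held under every alternative. The fifth, AT1TE66735, followed ALDH7B4, an aldehyde dehydrogenase gene of the stress response. It changed by -0.75 ± 0.14 in the OE APOLO-labelled libraries and by -1.55 ± 0.16 in OE UPAT, beside changes of -0.44 and -1.30 for ALDH7B4 itself.

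Another 5 elements rose in both comparisons. AT5TE78780, between AT5G53880 and AT5G08035, held 12.9, 13.5 and 11.1 CPM in the OE APOLO-labelled libraries, 11.5, 12.5 and 12.9 CPM in OE UPAT, and 8.21, 6.61 and 6.78 CPM in WT. The overexpression groups overlapped each other and were above WT, with log2 fold changes of 0.80 ± 0.12 (edgeR adjusted p = 5.83e-04) and 0.77 ± 0.13 (3.42e-04). AT5G53880 rose by 0.87 and 0.86 in the same comparisons.

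AT5TE92530 lay after DIT2.1, a gene of a chloroplast dicarboxylate transporter, and AT1TE95230 after TAPX, which encodes the thylakoid ascorbate peroxidase that removes hydrogen peroxide. AT5TE92530 changed by 0.71 ± 0.14 in the OE APOLO-labelled libraries and by 0.89 ± 0.14 in OE UPAT, and AT1TE95230 by 0.61 ± 0.10 and 0.42 ± 0.11. AT2TE26110 beside AGP9 changed by 0.58 ± 0.11 and 0.46 ± 0.12, where AGP9 itself changed by 0.47 and 0.39 without passing the test in either comparison. The calls in the OE APOLO-labelled libraries were kept in 17 of 21 alternatives for AT5TE92530 and AT2TE26110 and in 20 of 21 for AT1TE95230. Those in OE UPAT were kept in 21 of 21 for AT5TE92530, in 16 of 21 for AT2TE26110 and in 15 of 21 for AT1TE95230.

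AT1TE71775 started between positions 21746354 and 21748675 of chromosome 1, ahead of the pseudogene AT1G58561. Both this bracket and AT1G58561 lie within the span of the protein-coding gene AT1G58602 (positions 21746354 to 21766048). Of the repeats of 430 aligned bases, the left copy lies just outside AT1G58561 and the right copy crosses its other end. AT1TE71775 held 5.76, 5.32 and 4.94 CPM in the OE APOLO-labelled libraries, 9.71, 8.74 and 9.14 CPM in OE UPAT, and 2.34, 3.42 and 3.13 CPM in WT. The 3 groups stood apart, with OE UPAT highest. The log2 fold changes were 0.85 ± 0.17 in the OE APOLO-labelled libraries (edgeR adjusted p = 0.00334) and 1.63 ± 0.16 in OE UPAT (3.42e-06), and OE UPAT was above the OE APOLO-labelled libraries by 0.78 ± 0.15 (0.00148). In the same bracket, AT1TE71765 held 1.67, 1.79 and 1.48 CPM in OE UPAT and 0.167, 0.114 and 0.440 CPM in WT, a log2 fold change of 2.68 ± 0.45 (3.25e-04). WT libraries A and B lay under the floor of 3 counts there (0.215 and 0.206 CPM), so the size of this change rests on values under the floor. AT1TE71760 rose in OE UPAT by 1.11 ± 0.23 (0.00203). AT1G58602 changed by 0.23 in OE UPAT and was not called, while AT1G58561 rose by 1.54.

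Of the 7 elements that fell in the OE APOLO-labelled libraries alone, AT3TE71565 had the lowest fold change. It held 0.335, 0.333 and 0.458 CPM in the OE APOLO-labelled libraries, 0.437, 1.21 and 0.588 CPM in OE UPAT, and 1.55, 1.70 and 2.02 CPM in WT. The log2 fold change was -2.35 ± 0.38 (edgeR adjusted p = 7.79e-04) in the OE APOLO-labelled libraries, and -1.26 ± 0.36 in OE UPAT, where it missed the threshold at 0.0144. The OE APOLO-labelled values were not far above the floor of 3 counts (0.223, 0.222 and 0.258 CPM). The pseudogene AT3G47875 beside it held 4.5, 4.0 and 5.33 counts in these libraries and also changed by -2.35 and -1.26. AT2TE08840, within the pseudogene AT2G05280, held 1.01, 1.06 and 0.888 CPM in the OE APOLO-labelled libraries, 4.41, 3.06 and 3.02 CPM in OE UPAT, and 3.39, 5.10 and 4.45 CPM in WT. OE UPAT overlapped WT and the OE APOLO-labelled libraries were below both, with a log2 fold change of -2.11 ± 0.25 against WT (6.87e-05). AT4TE21055 and AT4TE21095, within a run of pseudogenes from AT4G08108 to AT4G08115 on chromosome 4, fell by 1.20 and 1.56 on the log2 scale, with 500.23 and 134.92 counts in all. On one side of each stood a nearly empty row, AT4G08108 with 2.5 and AT4G08114 with 14.0 counts, which were not tested. On the other side AT4G08115, beside AT4TE21095, held 719.75 counts and fell by 1.29 in the same comparison (edgeR adjusted p = 1.63e-04). AT4G08109, beside AT4TE21055, held 113.92 counts and had a log2 fold change of -1.08, which missed the threshold at 0.0349.

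AT4TE12660 was the only element of whole counts that was called in any comparison. It started between positions 2714765 and 2717977 of chromosome 4, between AT4G05310, which was at 0 in every library, and the polyubiquitin gene UBQ10. Its counts were 9, 8 and 13 in the OE APOLO-labelled libraries, 46, 41 and 38 in OE UPAT, and 51, 30 and 30 in WT, or 0.793 ± 0.28, 4.81 ± 0.31 and 2.68 ± 0.86 CPM (SD, n = 3 each). The libraries labelled OE APOLO were below all others. The log2 fold change was -1.77 ± 0.30 against WT (edgeR adjusted p = 0.00131), and OE UPAT was above the OE APOLO-labelled libraries by 2.61 ± 0.30 (1.49e-05), both under every alternative. In OE UPAT against WT it was 0.84 ± 0.24 and was not called (0.0148).

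Of the 7 elements that rose in the OE APOLO-labelled libraries alone, AT4TE42070, after AT4G16563, held 9.04, 9.24 and 11.2 CPM in these libraries, 7.27, 6.68 and 6.92 CPM in OE UPAT, and 4.41, 4.45 and 5.43 CPM in WT. The 3 groups did not overlap, and the log2 fold change was 1.04 ± 0.14 in the OE APOLO-labelled libraries (edgeR adjusted p = 1.85e-04) and 0.54 ± 0.15 in OE UPAT (0.0138, not called). AT4G16563 rose by 0.68 in the OE APOLO-labelled libraries. AT3TE06290 after AT3G05220 rose by 0.73 ± 0.11 and AT2TE86520 beside AGP16 by 0.51 ± 0.09. AT2TE73080 beside the aquaporin gene PIP2E rose by 0.46 ± 0.09. Their calls were kept in 21, 18 and 16 of 21 alternatives. None of these 3 nearest genes was called, but all had the same direction. They changed by 0.37, 0.39 and 0.28 (edgeR adjusted p = 0.0105, 0.0114 and 0.0303).

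The Sadhu element AT3TE60310, whose row equals SADHU3-2, held 1.41, 1.48 and 1.55 CPM in the OE APOLO-labelled libraries, 0.601, 1.03 and 1.11 CPM in OE UPAT, and 0.538, 0.411 and 0.155 CPM in WT. All 6 overexpression libraries were above WT, and WT library C lay under the floor of 3 counts (0.233 CPM). The log2 fold change was 1.91 ± 0.38 in the OE APOLO-labelled libraries (edgeR adjusted p = 0.00338, kept in 18 of 21 alternatives) and 1.24 ± 0.44 in OE UPAT (0.0454, not called). Per the RefSeq notes, SADHU3-2 is methylated and silenced in some natural accessions. Of the 16 Sadhu gene rows, 8 were tested and SADHU3-2 was the only one called in any of the 3 comparisons. SADHU1-1, the highest, averaged 44.0, 43.3 and 46.1 CPM in the OE APOLO-labelled libraries, OE UPAT and WT, and SADHU1-2 changed by -0.34 ± 0.10 and -0.23 ± 0.10 (adjusted p = 0.0307 and 0.101). SADHU9-1, SADHU7-2 and SADHU5-2 were at 0 in all 9 libraries.

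In OE UPAT, the largest rises after AT1TE71765 were of AT2TE50950, AT5TE50260 and AT4TE69880. AT2TE50950, after the protein-coding gene AT2G27402, held 12, 12.5 and 16 counts in the OE APOLO-labelled libraries, 27.5, 34.5 and 32 counts in OE UPAT, and 11, 10 and 4.5 counts in WT. The log2 fold change was 2.57 ± 0.31 (edgeR adjusted p = 2.06e-05), beside 2.49 for AT2G27402. AT5TE50260 had 56.5 counts in all, and it did not reach 30 counts outside its highest group, so that its place among the tested rows rested on the group in which it was high. Its log2 fold change was 2.37 ± 0.54 (edgeR adjusted p = 0.00363, kept in 16 of 20 alternatives). The pseudogene that follows it, AT5G35935, whose pair of direct repeats is shown above, held 49.5, 26.5 and 40.5 counts in the OE APOLO-labelled libraries, 20.5, 17.5 and 22.0 in OE UPAT, and 6.0, 7.5 and 5.5 in WT, and it rose by 2.62 ± 0.33 and by 2.24 ± 0.36.

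Among those that fell in OE UPAT alone, AT1TE22850 lay beside the pseudogene AT1G20390. It held 66.8, 63.3 and 65.7 CPM in the OE APOLO-labelled libraries, 43.6, 36.6 and 42.3 CPM in OE UPAT, and 63.8, 62.4 and 64.6 CPM in WT. OE UPAT was below both other groups, with a log2 fold change of -0.64 ± 0.08 (edgeR adjusted p = 1.46e-05) against WT. AT2TE09335 and AT2TE09340, both between the protein-coding gene AT2G05540 and the pseudogene AT2G05550, fell by 0.60 and 0.66 on the log2 scale where AT2G05540 fell by 0.59, and AT2G05550 was at 0 in every library. AT1TE30555, AT2TE32080, AT2TE39860 and AT2TE54200 fell by 0.41 to 0.70 on the log2 scale, each beside a protein-coding gene that fell by 0.44 to 0.73.

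**Figure D4:**
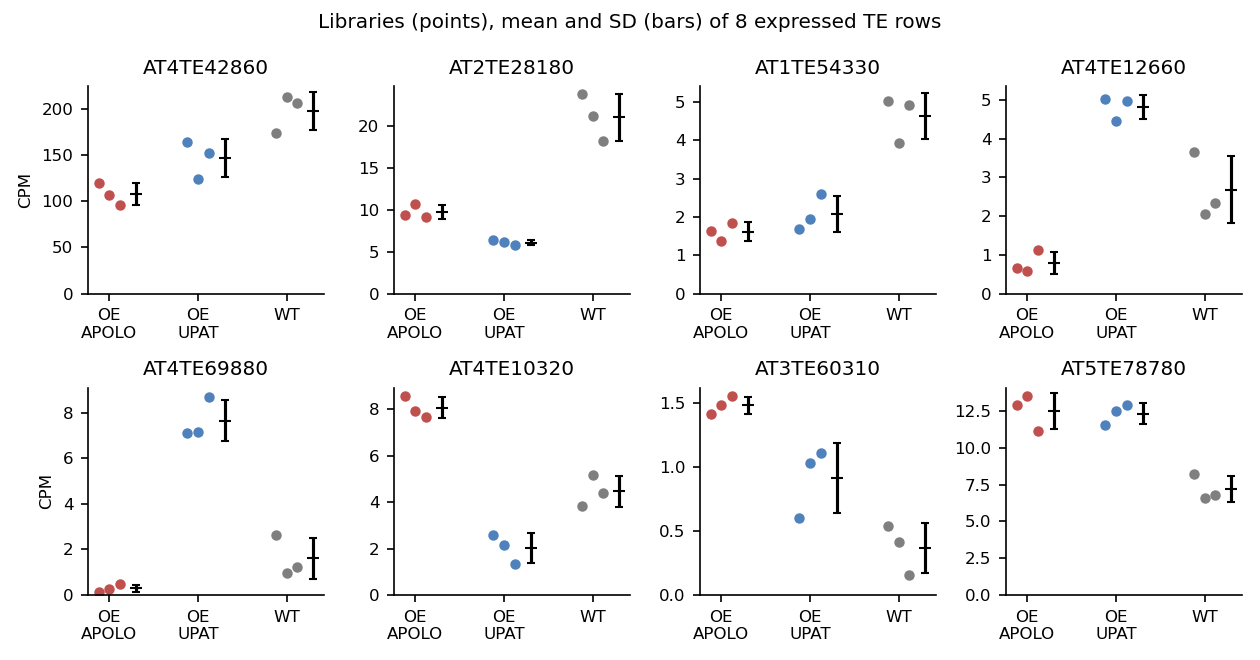
CPM (vertical axes, from 0) of 8 expressed TE rows in each library (points) of the OE APOLO-labelled libraries, OE UPAT and WT, with the group mean and SD (bars, n = 3). The first 3 panels show rows that fell in both comparisons, AT4TE12660 and AT4TE69880 are lowest in the OE APOLO-labelled libraries, and AT4TE10320 is highest there, at 8.57, 7.93 and 7.67 CPM.

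There were 3 elements called in opposite directions against WT, a count given without the share over all rows. AT4TE69880, after the cutinase gene CDEF1, held 0.149, 0.259 and 0.473 CPM in the OE APOLO-labelled libraries, 7.10, 7.17 and 8.68 CPM in OE UPAT, and 2.62, 0.959 and 1.24 CPM in WT. The log2 fold change was -2.32 ± 0.47 in the OE APOLO-labelled libraries (edgeR adjusted p = 0.00436) and 2.25 ± 0.29 in OE UPAT (3.22e-05). Library A labelled OE APOLO lay under the floor of 3 counts (0.223 CPM) for this element. CDEF1 held 64.0, 59.5 and 81.5 counts in the OE APOLO-labelled libraries, 1050, 991 and 885.5 in OE UPAT, and 584.5, 260 and 355 in WT, and changed by -2.44 and 1.96. AT4TE10320, before the pseudogene AT4G04410 with its identical 391-base repeats, held 8.57, 7.93 and 7.67 CPM in the OE APOLO-labelled libraries, 2.57, 2.15 and 1.33 CPM in OE UPAT, and 3.83, 5.16 and 4.41 CPM in WT. The 3 groups did not overlap, the changes were 0.85 ± 0.17 (0.00400) and -1.11 ± 0.22 (0.00159), and AT4G04410 changed by 0.85 and -1.21. AT3TE78350, within AT3G52060, changed by 0.40 ± 0.09 and -0.38 ± 0.10.

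Between the lines, 10 elements were higher and 22 lower in OE UPAT than in the OE APOLO-labelled libraries, or 32 of 539 (5.94%). Over all rows 16.8% were called, 7.97% higher and 8.78% lower. An unadjusted p under 0.05 was reached by 117 of the 539 elements, against 8167 of the 20678 gene rows. The count of called elements was 20 without OE UPAT library A and 19 without OE UPAT library C. The highest log2 fold change was that of AT4TE69880, 4.56 ± 0.39 (edgeR adjusted p = 9.82e-07). The lowest was that of AT1TE36890, after the formin gene AFH14, which held 0.109, 0.217 and 0 CPM in OE UPAT and 1.57, 0.579 and 1.39 CPM in the OE APOLO-labelled libraries. Its change was -3.23 ± 0.74 (0.00417), a fitted value that depends on the prior count. It had fewer than 30 counts outside its highest group and was singled out after its values had been seen. For AT4TE10320 the log2 fold change was -1.96 ± 0.21 (9.69e-06), for AT3TE78350 -0.79 ± 0.09 (2.42e-05) and for AT1TE30555 -0.67 ± 0.08 (2.82e-05).

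The log2 fold changes of elements mostly had the sign of their neighbours. Of the 465 elements whose nearest gene row was tested, 328 (70.5%) had the sign of that row's log2 fold change in the OE APOLO-labelled libraries against WT and 368 (79.1%) in OE UPAT against WT. Across these 465 elements Pearson's r between the changes was 0.70 and 0.73, and Spearman's rho 0.56 and 0.70. The points share libraries and, where rows hold fractions, may share reads, so these are descriptions and no p is given. With the following gene row in place of the nearest, r was 0.43 and 0.49 (361 elements). Over the 18 elements of whole counts with a tested neighbour r was 0.34 and 0.36, against 0.73 and 0.76 over the 447 with fractions, with 14 and 15 of the 18 on the neighbour's sign. Among the elements called with a tested neighbour, 22 of 22 had the neighbour's sign in the OE APOLO-labelled libraries and 37 of 38 in OE UPAT. Because these elements were picked for a clear change of their own in the same comparison, these shares cannot be set against those of all 465. Of all called elements, 2 in each comparison equalled a gene row.

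**Figure D5:**
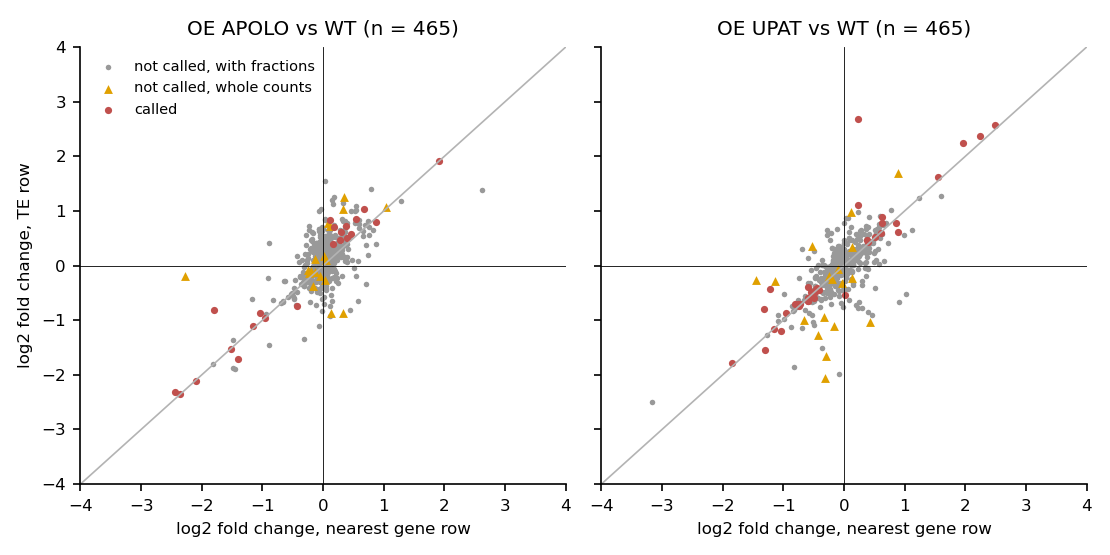
Log2 fold change against WT of each expressed TE row (vertical axis) and of its nearest gene row (horizontal axis) in the OE APOLO-labelled libraries (left) and in OE UPAT (right), for 465 rows with a tested neighbour. Red points are rows called at an adjusted p under 0.01, orange triangles rows of whole counts that were not called, and the diagonal marks equal changes. Most called rows lie near the diagonal (AT1TE71765, at 2.68 in the right panel, does not), with Pearson's r of 0.97 and 0.91 over 22 and 38 rows. Called rows were picked for a clear change of their own, so these r cannot be set against those over all 465 rows. Rows that equal their nearest gene row lie on the diagonal for that reason.

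The calls of elements and of their nearest gene rows were then set side by side. Where an element equalled its nearest gene row, the likeness of both calls was fixed in advance. Of the 13 elements that fell in the OE APOLO-labelled libraries, the nearest gene row fell for 10 and was not tested for 3. Of the 14 that rose there, the nearest row rose for 3, was not called for 9 and was not tested for 2. In OE UPAT, the nearest row rose beside 11 of 16 elements that rose, and fell beside 22 of 26 that fell. Not one called element had a nearest row called the other way in these 2 comparisons. The other way round, most elements beside a called gene were not called: among the 497 elements not called in OE UPAT, the nearest row rose for 33 and fell for 42.

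A list of 36 genes of transposon silencing was followed, and all were tested. It also held genes that act against silencing, the DNA demethylases ROS1, DME, DML2 and DML3 and the histone demethylase IBM1. Counts and medians over the list therefore mix both kinds. By edgeR none (0) of the 36 was called in the OE APOLO-labelled libraries against WT, and 0 by DESeq2, where edgeR called 6.21% of all rows. Of the 36, 14 had an unadjusted p under 0.05 by edgeR, against 5371 of 20678 over the gene rows. The median log2 fold change over the list in that comparison was -0.05. In OE UPAT 5 rose and 1 fell against WT, with a list median of 0.05. With 18.8% of all rows called in that comparison, 6 calls among 36 genes are near the background, and the genes that follow are given as single values. DDM1, the remodeller that opens heterochromatin to methyltransferases, held 68, 61 and 59 counts in OE UPAT and 46, 56 and 43 in WT and rose by 1.05 ± 0.17 (edgeR adjusted p = 2.85e-04). MET1 rose by 0.62 ± 0.09 (7.80e-05), CMT3, a chromomethylase of CHG sites, by 0.91 ± 0.18 (0.00119), CMT2, a chromomethylase of heterochromatin, by 0.57 ± 0.15 (0.00935), and AGO4, the Argonaute of RNA-directed DNA methylation, by 0.39 ± 0.09 (0.00391). DRM2, the methyltransferase of that pathway, fell by 0.49 ± 0.10 (0.00155).

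VIM1, the methylcytosine-binding protein of the study, varied between replicates. Its row held 383, 1224 and 419 counts in the OE APOLO-labelled libraries, 127, 101 and 102 in OE UPAT, and 711, 191 and 259.5 in WT. The libraries labelled OE APOLO overlapped WT, and neither comparison with WT was called, with log2 fold changes of 0.88 ± 0.41 and -1.14 ± 0.49 (edgeR adjusted p = 0.188 and 0.0947), while OE UPAT was below the OE APOLO-labelled libraries with a log2 fold change of -2.03 ± 0.48 (0.00513). AT1TE70690 and AT1TE70700, LINE1 elements beside VIM1, were at 0 in all 9 libraries, as were most of the 31189 element rows. Below the minimum of 45 counts, no element had 3 or more counts in each library of an overexpression group and 0 in each WT library. The element AT3TE92015 was at 0 in each OE UPAT library and at 3 or more counts in each WT library, and it was singled out after its values had been seen.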

How the data were processed

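Poly(A) RNA of 4-day-old seedlings was sequenced from TruSeq stranded libraries, 3 per group, as 75-bp single reads. The authors trimmed reads with Trimmomatic 0.36, aligned them with STAR 2.5.2b and counted them with featureCounts of Subread 1.6.5 on Araport11. The deposited values are estimated counts, since many are fractional, and were rounded to whole numbers for testing. Depth was from 7901946 to 14112670 counts per library, and the floor of 3 counts covers counting error only. SE values come from the edgeR fit, whose estimate of spread includes that between replicates, and SD values are over the 3 libraries of a group. All 21217 gene and element rows with at least 45 summed counts entered edgeR 4.0.16 (R 4.3.3) with TMM factors, 3 groups and no covariate, with Benjamini-Hochberg adjustment over all rows and a threshold of 0.01. The fit was tested on simulated data. CPM was computed from the deposited counts and the TMM-scaled library sizes. Named elements were those of highest level, those of lowest p per comparison and direction, and those called in both comparisons or in opposite directions. The members and gene lists were chosen with earlier results of these data known. Gene positions are those of RefSeq TAIR10.1, and element positions and families were not used here. Alternatives were other scalings, filters, roundings, thresholds and samples, a replicate block and DESeq2 1.42.0.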

Additional observations from a re-analysis of the deposited data

Results flagged for a closer look

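Of the elements, 3 changed in opposite directions against WT in the 2 lines, so their difference between the lines was tested in the same edgeR fit. AT4TE69880 was higher in OE UPAT than in the OE APOLO-labelled libraries by 4.56 on the log2 scale (adjusted p = 9.82e-07). AT4TE10320 differed by -1.96 (9.69e-06) and AT3TE78350 by -0.79 (2.42e-05). All 3 differences were kept under the 21 alternatives tried. The calls of AT3TE78350 against WT were kept in 10 of 21 alternatives for the OE APOLO-labelled libraries and in 12 of 21 for OE UPAT. In the OE APOLO-labelled libraries the calls against WT were kept in 17 of 21 for AT4TE69880 and in 18 of 21 for AT4TE10320, and in OE UPAT both were kept in 21 of 21.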

How the results depend on the processing

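Leaving out 1 library in turn gave from 13 to 25 called elements for the OE APOLO-labelled libraries against WT (27 with all), from 23 to 44 for OE UPAT against WT (42) and from 19 to 33 for OE UPAT against the OE APOLO-labelled libraries (32). In the same order of comparisons, an adjusted p under 0.05 gave 50, 74 and 61 calls, a log2 fold change of at least 1 in size gave 11, 12 and 12, and the 22 elements of whole counts alone gave 1, 0 and 1 by edgeR, with 5, 6 and 5 at an unadjusted p under 0.05 and 1 in each comparison by DESeq2. DESeq2 gave 23, 31 and 26, and a fit of only the 2 groups compared 19, 46 and 26. The other scalings, filters and roundings stayed within 1.5 times, and no named call turned its direction. Of 66 calls of named elements, 41 were kept under every setting. The percent difference of the summed level from WT was 0.68 in the OE APOLO-labelled libraries and moved to -1.99 as a share of counts, 7.20 without the 5 highest elements and -11.3 over whole counts. In OE UPAT it was -9.50, and moved to -4.06 without the 5 highest and -15.8 over whole counts. The share of elements with their neighbour's sign moved to 59.3%, 64.0% and 59.8% with the following gene and to 77.8%, 83.3% and 72.2% over whole counts. The cause of these shifts was not tested.

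With the replicate letter as a replicate block, 26, 38 and 29 elements were called. Whether the letters pair the libraries was not settled. Same-letter correlations of deviations from the group means ran from -0.24 to 0.16. Among the OE UPAT libraries, each OE APOLO-labelled library correlated best with its own letter (0.16, 0.13 and 0.01 for A, B and C). Against WT this did not hold, with -0.13 for A and -0.24 for B. With 3 libraries per group, such correlations cannot decide the question.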
